A study of Mus musculus with 96 samples.

Results

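Arntl, Clock and Npas2, the genes for the activating transcription factors of the circadian clock, were followed across genotype, cell type and time of day in mouse liver cells. They were found by gene symbol, and each gene was read at its transcript with the highest mean level. These are 3 of the 25095 gene symbols in the deposited tables, and all 3 passed the filter on low values in each of the 4 tables. The 96 RNA sequencing libraries came from male C57BL/6J mice fed a high fat and sucrose diet (D12492i) for 4 weeks, and were prepared from hepatocytes or from liver macrophages. Floxed mice received an adeno-associated virus in which the TBG promoter, active in hepatocytes, drove either GFP (Control) or Cre recombinase. The genotypes made with Cre are named by the genes removed: RevDKO for Nr1d1 and Nr1d2, RevScapTKO for Nr1d1, Nr1d2 and Scap, and ScapKO for Scap alone. According to the methods of the study the mice were 8 weeks old when the virus was given. Livers were taken at ZT4, ZT10, ZT16 and ZT22 (ZT, or zeitgeber time, counts hours from lights on, and lights went off at ZT12), and each genotype, cell type and time had 3 libraries. The virus acted on hepatocytes, so the macrophages shared a liver with edited hepatocytes and were not themselves the target. The labels do not say that the 3 libraries came from separate animals, whereas the methods call them biological replicates; p-values therefore measure the spread between these libraries only.

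In the circadian clock, the protein BMAL1, encoded by Arntl, pairs with CLOCK or with its relative NPAS2. The pair binds E-box sequences in DNA and switches on the genes Per, Cry, Nr1d1, Nr1d2, Dbp and others, whose products then act back on the pair. The nuclear receptors REV-ERBα and REV-ERBβ, encoded by Nr1d1 and Nr1d2, compete with the activating ROR receptors at ROR elements and repress Arntl, Npas2, Nfil3 and Cry1, and in liver this loop is known for setting the daily timing of metabolic genes.

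In the mouse genome build mm9, Arntl lies on the plus strand of chromosome 7 (120350979 to 120457640), Clock on the minus strand of chromosome 5 (76638893 to 76733817) and Npas2 on the plus strand of chromosome 1 (39251117 to 39420085). Of the other annotated genes, 0 overlapped any of the 3. The tables list 4 transcripts of Arntl, 3 of Clock and 1 of Npas2; the transcripts read were NM_001368412, NM_001289826 and NM_008719, except that NM_001357070 had the highest Arntl mean in ScapKO hepatocytes and was read there. The region from 250 bases before to 50 bases after each transcript start was searched on both strands for the ROR and REV-ERB elements TAGGTCA and TGGGTCA, the shorter site AGGTCA, which TAGGTCA contains, the E-box CACGTG and its variant CACGTT. Windows are shown for Arntl and for Nfil3, a repressor of D-box genes whose levels over genotype and time were among the most like those of Clock and Npas2, because both hold TAGGTCA, and for Npas2, which moved with them and holds none of these letters. Capitals mark TAGGTCA, or TGACCTA where it reads on the other strand. All are from the reference genome, 5′ to 3′ on the strand of the gene: Arntl at chr7:120350775-120351074 (plus strand), Nfil3 (NM_017373) at chr13:53076359-53076658 (minus strand) and Npas2 at chr1:39250867-39251166 (plus strand).
Arntl: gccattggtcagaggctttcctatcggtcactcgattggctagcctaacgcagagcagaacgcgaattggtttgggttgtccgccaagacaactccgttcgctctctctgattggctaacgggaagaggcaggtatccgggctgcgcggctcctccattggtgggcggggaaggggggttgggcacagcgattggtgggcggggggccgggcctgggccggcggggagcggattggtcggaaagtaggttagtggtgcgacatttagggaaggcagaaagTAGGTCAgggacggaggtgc
Nfil3: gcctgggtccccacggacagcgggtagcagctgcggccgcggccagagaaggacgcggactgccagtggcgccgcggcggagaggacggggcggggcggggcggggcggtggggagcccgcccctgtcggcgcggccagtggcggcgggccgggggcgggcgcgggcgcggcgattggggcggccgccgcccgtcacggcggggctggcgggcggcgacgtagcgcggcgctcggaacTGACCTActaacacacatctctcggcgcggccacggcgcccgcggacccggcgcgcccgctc
Npas2: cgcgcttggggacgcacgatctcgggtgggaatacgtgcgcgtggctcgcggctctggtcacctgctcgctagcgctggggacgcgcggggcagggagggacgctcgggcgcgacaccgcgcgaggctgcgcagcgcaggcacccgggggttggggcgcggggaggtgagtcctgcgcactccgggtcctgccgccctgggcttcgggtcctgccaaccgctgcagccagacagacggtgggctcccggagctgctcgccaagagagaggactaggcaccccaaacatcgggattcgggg
In Arntl the element began 31 bases after the transcript start, inside the first exon, and in Nfil3 its first base lay at position -12. The other 3 Arntl transcripts share a start 46 bases upstream. Their window ends before this element, which lies downstream of it, and so held none of the letters searched. The window of the Clock transcript read held none either. Over 25016 promoters of the same length, TAGGTCA was present in 2.33%, TGGGTCA in 3.66%, AGGTCA in 14.4%, CACGTG in 7.7% and CACGTT in 4.76%. A match is a description of the letters and not a measurement of binding.

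All levels are RPKTM, a read density per kilobase of transcript scaled to the size of the library (10 times the RPKM value) and quantile normalized within a table. Levels are therefore set against each other only within a table, and the sequencing depth behind them is unknown. Where groups of 3 libraries are said to lie apart or to overlap, this only describes those values. The share of all genes whose groups lay apart was not counted. The targeted genes went against the labels in part: in the libraries labelled RevDKO, hepatocyte Nr1d1 was 39.9 to 359 RPKTM against 3.57 to 358 in Control, and the limma mean over the day was 1.55 log2 units higher (adjusted p 8.87e-05). Nr1d2 was not lower either, with a hepatocyte mean of 312 RPKTM in RevDKO and 353 in RevScapTKO against 228 in Control. The study itself reports a marked drop of both genes in hepatocytes, from relative mRNA levels. The RPKTM values cover whole transcripts, and which exons were removed was not given in the sources used here. These values therefore need not read out a deletion. Hepatocyte Scap fell by 1.30 in the libraries labelled RevScapTKO (adjusted p 2.87e-08), with no overlap with Control. The ScapKO hepatocyte libraries have titles naming hepatocytes and a cell type label naming macrophages. The titles were followed. In the macrophage table, summed hepatocyte markers had medians of 86039 to 93739 RPKTM by genotype against 8584 to 16661 for summed macrophage markers, so hepatocyte transcripts were abundant in macrophage libraries of every genotype. In 3 macrophage libraries, Control ZT16 replicate 1, Control ZT22 replicate 1 and RevScapTKO ZT22 replicate 3, the hepatocyte gene Alb alone made up over 10% of the column sum. Quantile normalization gives every library of a table the same set of values, so this share reflects only the rank of Alb. It is not a measured share of the RNA. In 1 ScapKO hepatocyte library, ZT16 replicate 3, Xist was at 130 RPKTM although all mice were labelled male, and leaving it out changed no call of the activators. In such bulk libraries, fewer cells of a type and less RNA per cell cannot be told apart.

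The first question was how the activators behaved across the day in Control hepatocytes. Arntl was lowest late in the light phase and highest late in the dark phase, Npas2 was near 0 except at ZT22, and Clock varied less. Arntl measured 58.2, 32.1 and 19.7 RPKTM at ZT4, 4.62, 4.21 and 10.6 at ZT10, 63.1, 89.5 and 99.2 at ZT16, and 112, 117 and 119 at ZT22. No 2 of these times overlapped, and the mean at ZT22 was 17.9-fold that at ZT10. Npas2 measured 11.4, 1.22 and 0 at ZT4, 0, 1.06 and 0 at ZT10, 0, 2.64 and 7.28 at ZT16, and 26.7, 41.5 and 58.5 at ZT22. The 3 libraries at ZT22 stood above the other 9, of which 4 were listed at 0. Clock measured 507, 109.8 and 318 at ZT4, 254, 227 and 244 at ZT10, 425, 512 and 451 at ZT16, and 457, 467 and 544 at ZT22. Its dark phase values all exceeded those at ZT10, whereas its ZT4 values spread across the whole range of the day. A 24 h cosine and sine pattern was tested with limma on log2(RPKTM + 1), a scale that understates the changes of low genes; such a pattern passed for 8.29% of 13326 genes. Arntl had the smallest p of all genes, with a peak-to-trough size of 4.26 log2 units, a fitted peak at ZT20.8 and an adjusted p of 6.77e-12. The Npas2 pattern was 5.02 in size with a peak at ZT22.0 (adjusted p 8.07e-06), and that of Clock 1.30 with a peak at ZT19.4 (adjusted p 0.00724). The Clock call was lost when only Control libraries entered the fit (adjusted p 0.0897).

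**Figure D1:**
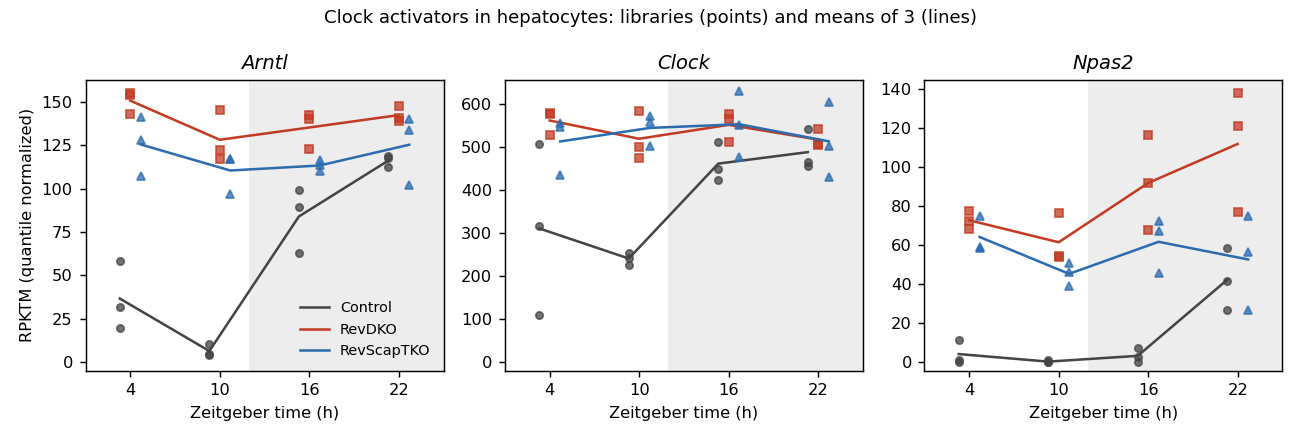
Levels of Arntl, Clock and Npas2 in hepatocytes (RPKTM, vertical axes) against zeitgeber time (h, horizontal axes, dark phase shaded); points are single libraries, offset sideways by genotype, and lines join the means of 3. Control Arntl dips to 4.21 to 10.6 at ZT10 while the libraries labelled RevDKO and RevScapTKO stay between 96.7 and 155 at every time.

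The second question was how the activators differed in hepatocytes labelled RevDKO. All 3 genes were higher than in Control when averaged over the day, Npas2 most, and the differences in all 3 were smallest at ZT22. Arntl measured 155, 143 and 154 RPKTM at ZT4, 145, 117 and 122 at ZT10, 123, 142 and 140.3 at ZT16, and 139, 140.4 and 148 at ZT22. Every one of these values lay above all 3 Control values of the same time, and 11 of the 12 lay above the highest Control value of any time. As ratios of the means, Arntl was 4.11-fold of Control at ZT4, 19.7-fold at ZT10, 1.61-fold at ZT16 and 1.23-fold at ZT22. Averaged over the 4 times, Arntl was 1.83 log2 units higher (95% interval 1.57 to 2.10, limma adjusted p 1.6e-11). In this comparison 4.43% of genes passed in either direction, and all 3 activators were among them.

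By time of day, the higher Arntl passed at ZT4 (2.14 log2 units, limma adjusted p 1.22e-05) and at ZT10 (4.20, 7.62e-13), where 0.413% and 0.690% of all genes passed as higher. At ZT16 the Arntl difference was 0.70 (adjusted p 0.562) and at ZT22 0.29 (adjusted p 0.876), neither past the threshold. The shares of genes that passed as higher at these times were 0.150% and 0.263%.

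Npas2, the alternative partner of BMAL1, had the largest difference of the 3 genes. In the libraries labelled RevDKO it measured 72.4, 77.4 and 68.2 RPKTM at ZT4, 76.2, 53.6 and 54.3 at ZT10, 91.5, 67.6 and 116 at ZT16, and 121, 138 and 76.6 at ZT22. All 12 values were above the Control values of their time, and the lowest, 53.6, was exceeded by only 1 Control library, at ZT22. The mean over the day was 4.12 log2 units higher (3.52 to 4.72, limma adjusted p 1.65e-11). Because Control lay near 0, this size depended on the constant added before the logarithm, being 5.41 with 0.1 and 2.39 with 10, and over all settings the ZT10 difference ran from 2.77 to 8.07; both passed each time. Npas2 passed at ZT4 (4.60, adjusted p 2.78e-05), ZT10 (5.60, 2.09e-07) and ZT16 (4.86, 1.74e-05), and the difference at ZT22 was 1.41 (0.495).

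Clock, which encodes the main partner of BMAL1, differed least. In the libraries labelled RevDKO it measured 580.2, 578 and 530.0 RPKTM at ZT4, 501, 584 and 476 at ZT10, 577, 513 and 567 at ZT16, and 542, 507 and 506 at ZT22. These values stood above all Control values at ZT4, ZT10 and ZT16 and overlapped with Control at ZT22. The mean over the day was 0.64 log2 units higher (0.36 to 0.92, limma adjusted p 0.00318). By time, Clock passed only at ZT10 (1.10, adjusted p 0.0317), and leaving out any 1 of the 6 libraries compared there raised the adjusted p to between 0.0725 and 0.167. At ZT4 the difference was 1.1 (adjusted p 0.0525), and it became 1.58 (adjusted p 0.000422) without Control ZT4 replicate 1, whose 507 lies far from the 109.8 of replicate 2. At ZT16 and ZT22 Clock differed by 0.26 and 0.09 (adjusted p 1 and 0.983).

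**Figure D2:**
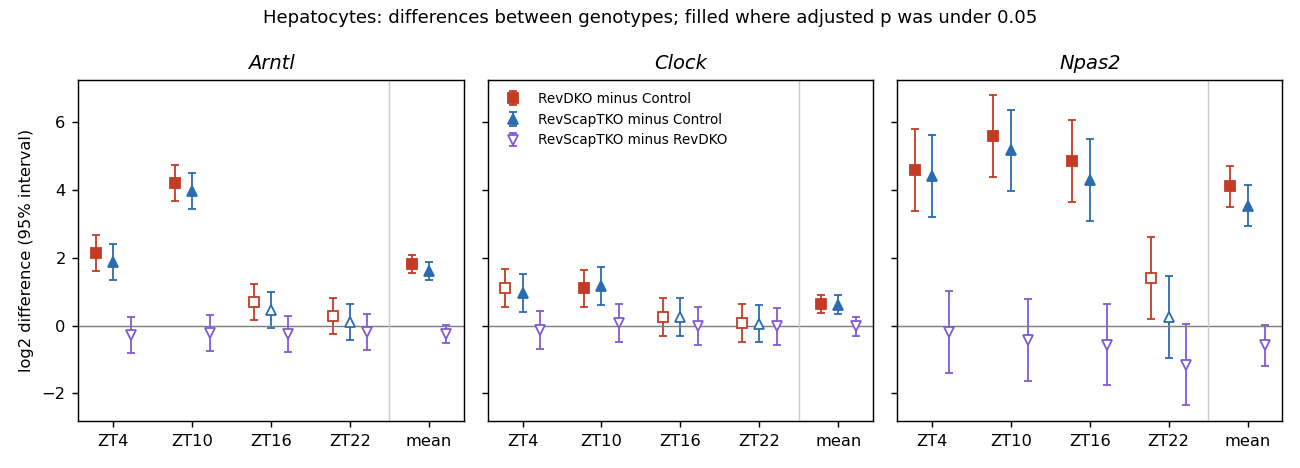
Fitted differences in hepatocytes (log2 scale, vertical axis) of Arntl, Clock and Npas2 by zeitgeber time and for the mean over the day, with 95% intervals from limma and filled markers where the adjusted p was under 0.05. The differences from Control are largest at ZT10, 4.20 for Arntl and 5.60 for Npas2 in the libraries labelled RevDKO, and are smaller at ZT22, 0.29 and 1.41.

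The daily patterns were compared next. In the libraries labelled RevDKO the fitted sizes were 0.22 for Arntl, 0.03 for Clock and 0.88 log2 units for Npas2 (limma adjusted p 0.83, 0.998 and 0.583), while 4.08% of genes passed. The coefficient of variation over the 12 libraries was 8.83% for Arntl, against 75% in Control, and 7.03% for Clock, against 37.2%. A rank test of 24 h patterns with each series entered once gave Npas2 in these libraries p 0.0498 after multiplication by the 4 phases tried, and 18.2% of genes passed it. The difference in pattern itself, between RevDKO and Control, passed for 0.203% of genes (27) and for Arntl and Npas2 among the activators. Arntl again had the smallest p of all genes, with a difference of 4.17 log2 units peak to trough (adjusted p 1.27e-07). For Npas2 the difference was 4.20 (adjusted p 0.0496), and each of the 8 other settings tried put that p between 0.0552 and 0.275, where the call was lost. For Clock it was 1.32 (adjusted p 0.611), and 0.0262 without Control ZT4 replicate 1.

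**Figure D3:**
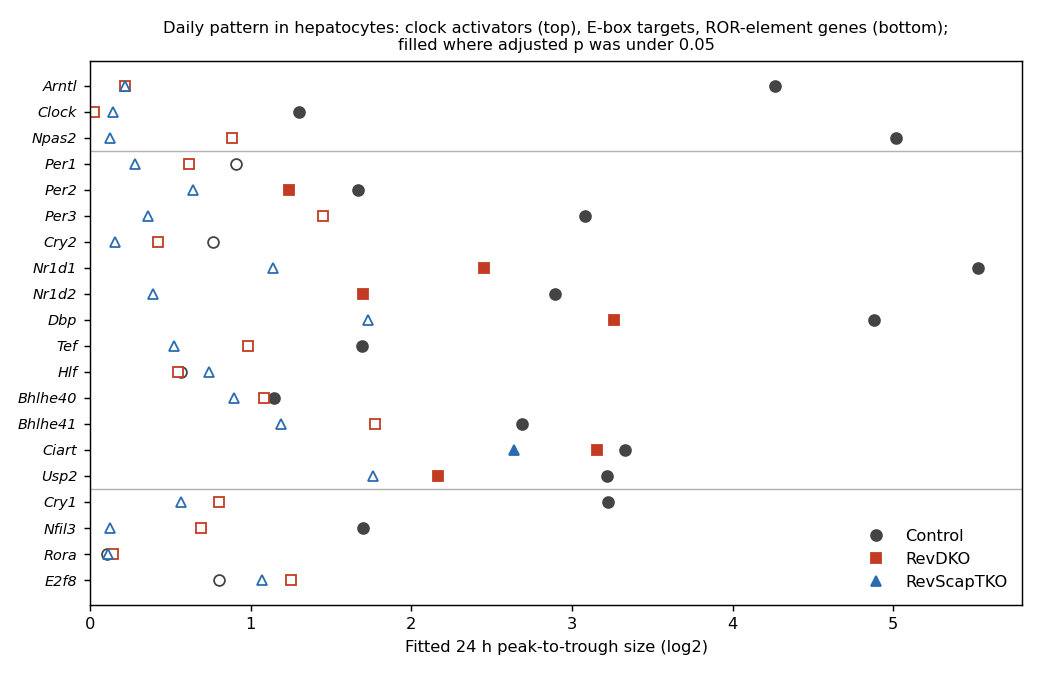
Fitted peak-to-trough size of the 24 h pattern (log2 units, horizontal axis) of the 3 activators, the E-box targets and 4 of the ROR-element genes in hepatocytes, 1 marker for each genotype, filled where the limma adjusted p was under 0.05. The Arntl markers lie at 4.26 for Control and at 0.22 for both RevDKO and RevScapTKO.

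The third question was whether removal of Scap in addition moved the activators. In hepatocytes labelled RevScapTKO, Arntl measured 141, 107 and 128 RPKTM at ZT4, 117, 117 and 96.7 at ZT10, 117, 109.9 and 113 at ZT16, and 140.0, 102 and 134 at ZT22. These lay below all RevDKO values at ZT4 and ZT16 and overlapped with them at ZT10 and ZT22. Npas2 measured 58.5, 59.2 and 74.6 at ZT4, 38.9, 50.6 and 46.2 at ZT10, 72.2, 67.2 and 45.5 at ZT16, and 74.8, 26.6 and 56.4 at ZT22. Its values lay below all those of RevDKO at ZT10 and ZT22 and overlapped at ZT4 and ZT16. How many of all genes lay apart in this way was not counted. Clock measured 557, 437 and 548 at ZT4, 573, 503 and 560.1 at ZT10, 631, 552 and 478 at ZT16, and 607, 432 and 504 at ZT22, overlapping with RevDKO at each time.

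Averaged over the day, RevScapTKO minus RevDKO was -0.23 log2 units for Arntl (95% interval -0.50 to 0.03, limma adjusted p 0.191), -0.02 for Clock (-0.30 to 0.25, 0.919) and -0.58 for Npas2 (-1.18 to 0.02, 0.148). None of the 3 passed, in a comparison where 26.2% of genes did. With only the 2 genotypes in the fit, the same differences had adjusted p values of 0.0372 for Arntl and 0.00854 for Npas2, and Npas2 also passed with a constant of 10 added before the logarithm (-0.51, adjusted p 0.00846). At single times 0 of the 3 genes passed, while 9.28% of genes did at ZT4, 0.908% at ZT10, 1.37% at ZT16 and 2.35% at ZT22; Npas2 at ZT22 differed by -1.15 (-2.35 to 0.06, adjusted p 0.338). The differences in daily pattern were 0.03 for Arntl, 0.17 for Clock and 0.82 for Npas2; limma called 0 genes here, and 674 had an unadjusted p under 0.05.

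Against Control, which is shared with the RevDKO comparison, hepatocytes labelled RevScapTKO had a mean 1.60 log2 units higher for Arntl (1.34 to 1.9, limma adjusted p 3.94e-11), 0.61 higher for Clock (0.34 to 0.89, 0.000812) and 3.54 higher for Npas2 (2.94 to 4.14, 6.62e-11). As higher, 17.3% of genes passed. Arntl passed at ZT4 (1.9, 1.2e-05) and ZT10 (3.99, 1.28e-12), and Npas2 at ZT4 (4.42, 5.42e-06), ZT10 (5.18, 2.93e-07) and ZT16 (4.30, 8.66e-06). Clock passed at ZT4 (0.97, 0.0142) and ZT10 (1.17, 0.00864), and its ZT4 difference was 0.35 (adjusted p 0.225) without Control ZT4 replicate 2. The shares of genes that passed as higher were 9.27% at ZT4, 2.03% at ZT10 and 0.968% at ZT16. At ZT22 the differences were 0.10 for Arntl, 0.06 for Clock and 0.26 for Npas2, where 1.13% of genes passed as higher and none of the activators did. The changed daily pattern passed for 0.188% of genes, among them Arntl (4.14, adjusted p 1.46e-07) and Npas2 (4.92, 0.00983) and not Clock (1.32, 0.484). Within RevScapTKO the fitted sizes were 0.22, 0.14 and 0.13 (adjusted p 0.84, 0.933 and 0.988) for Arntl, Clock and Npas2.

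RevScapTKO hepatocyte libraries also had higher summed macrophage markers (median 2816 RPKTM, against 841 in Control and 1044 in RevDKO) and stellate cell markers (2347, against 756 and 1071). With the mean macrophage marker level as a covariate the 3 activators passed in the mean over the day in both comparisons with Control. That covariate itself differed by genotype and left out the stellate cell markers. It therefore cannot separate cell composition from genotype, and the part of composition was not tested.

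RPKTM is a level per length and allows the 3 genes to be ordered within a library. Clock was above Arntl and Arntl above Npas2 in 12 of 12 hepatocyte libraries of each genotype. The distance between the 2 partners of BMAL1 differed: as a percentage of Clock, the median Npas2 level was 0.813% in Control, 14.3% in RevDKO and 10.9% in RevScapTKO. In macrophages the order was the same in 12 of 12 Control, 9 of 12 RevDKO and 10 of 12 RevScapTKO libraries, with median Npas2 at 0.373%, 20.3% and 20.7% of Clock.

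The other clock genes gave the setting for these values. Their lists were chosen with earlier results of these data known and hold the targeted genes Nr1d1 and Nr1d2. Counts over these lists are therefore a description and no independent evidence. They were 13 genes listed as E-box targets, 5 as ROR-element genes and 11 as modifiers and partners of clock proteins. In the promoter windows, 1 of the 5 ROR-element genes (Nfil3) held TAGGTCA or TGGGTCA. Of the 13 E-box targets, 3 held CACGTG and 3 held CACGTT. In the hepatocyte mean of RevDKO minus Control 6 of 29 passed, against 4.43% of all genes. The median over the 29 was 0.09 log2 units against -0.01 over all genes. Of the 5 listed ROR-element genes 3 passed, 2 as higher and 1 as lower. The 2 higher were Nfil3 (1.3, limma adjusted p 1.19e-08) and Cry1, a repressor of the BMAL1 pair (1.17, 1.2e-06). Of the E-box targets, Nr1d1 and Bhlhe41 passed as higher and Usp2 as lower, and of the modifiers 0 of 11 passed. Cry1 (3.13, adjusted p 0.000242) and Nfil3 (2.29, 0.00325) were the only 2 of the 29 with a changed daily pattern between RevDKO and Control. A daily pattern passed for 13 of the 29 in Control (10 E-box targets and 3 ROR-element genes), for 6 in RevDKO, all of them E-box targets (Ciart, Dbp, Usp2, Nr1d1, Nr1d2 and Per2), and for 1, Ciart, in RevScapTKO, where the shares of all genes were 8.29%, 4.08% and 0.683%. In RevScapTKO minus Control 14 of 29 passed in the mean, against 35.9% of all genes. In RevScapTKO minus RevDKO 5 of 29 did, against 26.2% of all genes.

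Likeness to each activator was described by Pearson's r between log2 group means over the 12 groups of genotype and time in hepatocytes, among 2773 genes, with no test; the groups share libraries and normalization. Among the genes most like Arntl were Chka, which encodes choline kinase (r = 0.959), Dnmt3b, a DNA methyltransferase (0.957), the cell cycle inhibitor Cdkn1a (0.953) and Ddc (0.945). For Clock they included Nfil3 (0.941), Arntl itself (0.933), Chka (0.932) and Cdkn1a (0.924). For Npas2 they were Grk5, which encodes a G protein-coupled receptor kinase (0.969), Loxl4 (0.964), Chka (0.911), the lipase Lpl (0.907) and Nfil3 (0.905). Chka appeared for all 3. Among themselves the activators had r of 0.933 for Arntl and Clock, 0.863 for Arntl and Npas2 and 0.876 for Clock and Npas2. Of the 9 like genes outside the trio, 1 held TAGGTCA in its promoter window (Nfil3) and 1 held TGGGTCA (Ddc).

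ScapKO hepatocytes came from a table of their own with no Control libraries in it, so their levels are described within that table. Arntl measured 69.0, 17.4 and 56.9 RPKTM at ZT4, 6.83, 9.87 and 17.5 at ZT10, 125, 105 and 109.6 at ZT16, and 226, 199.7 and 199.7 at ZT22. The low point was again at ZT10 and the high point at ZT22, 18.3-fold apart as means. The fitted pattern had a size of 4.41 and a peak at ZT20.7 (limma adjusted p 0.000629), where 1.85% of 12724 genes passed.

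Clock in ScapKO hepatocytes measured 597, 399 and 724 at ZT4, 331, 351 and 458 at ZT10, 649.7, 746 and 847 at ZT16, and 929.9, 930.3 and 764 at ZT22, with a size of 1.28 and a peak at ZT20.7 (limma adjusted p 0.0137). Leaving out ZT10 replicate 1 or 2 raised that p to 0.0726 or 0.0690. Npas2 measured 14.5, 0 and 10.7 at ZT4, 0, 1.1 and 0 at ZT10, 4.54, 3.24 and 0.70 at ZT16, and 26.4, 140.3 and 51.4 at ZT22. As in Control, the ZT22 libraries were the highest, and they also differed most among themselves. The fitted pattern of Npas2 was 5.57 with a peak at ZT22.5 (adjusted p 0.0197), and the call was lost without any 1 of the ZT10 libraries (adjusted p 0.0521 to 0.0814). The ZT22 library with Npas2 at 140.3 had Scap at 1006, the highest of the ScapKO hepatocyte libraries, and replicate 1 of ZT22 had a summed hepatocyte marker level of 371779 against at least 1125367 in the others. Leaving out either library changed no call of the 3 activators.

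**Figure D4:**
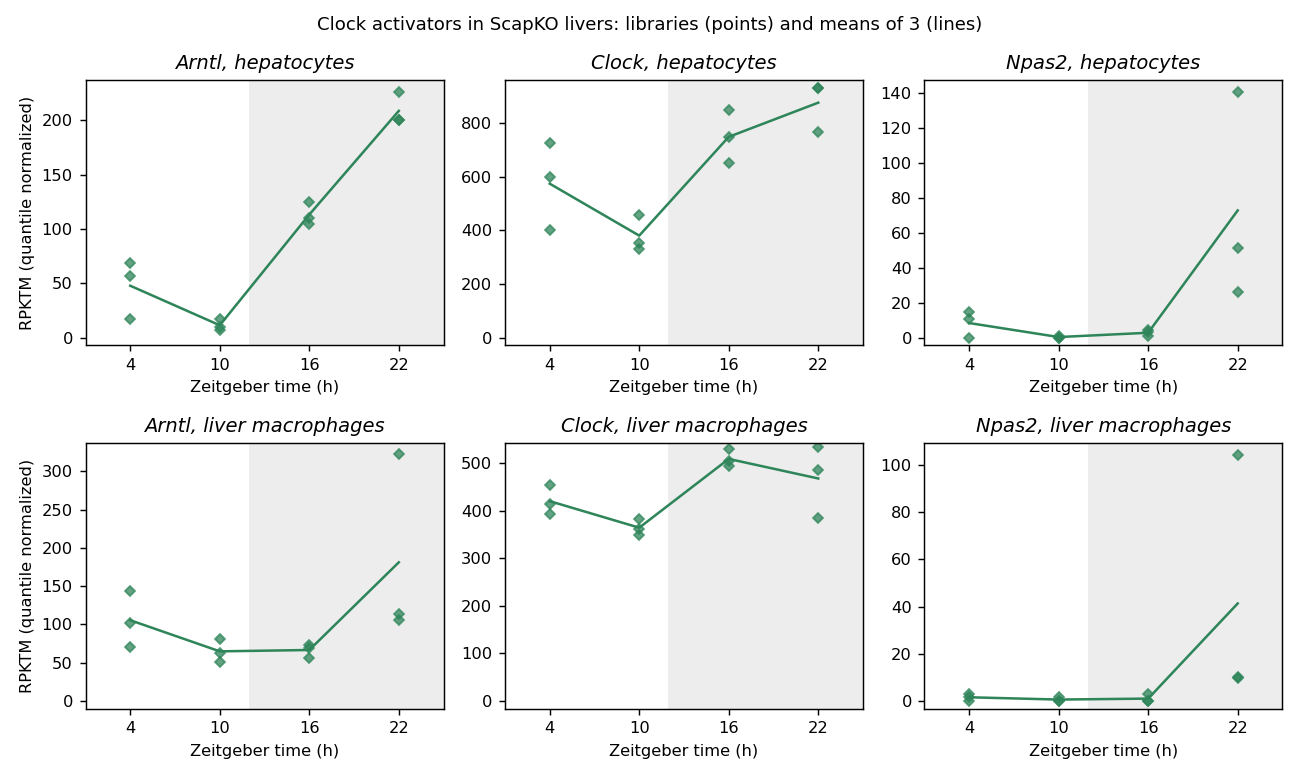
Levels of Arntl, Clock and Npas2 (RPKTM, vertical axes) against zeitgeber time (h, horizontal axes, dark phase shaded) in ScapKO hepatocytes (upper row) and ScapKO liver macrophages (lower row); points are libraries and lines join the means of 3. Hepatocyte Arntl runs from 6.83 to 17.5 at ZT10 to between 199.7 and 226 at ZT22, and 1 macrophage library at ZT22 stands apart at 323 for Arntl and 104 for Npas2.

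The last question was whether the activators differed in macrophages of the same genotypes, whose own genes were not targeted. Npas2 was higher in macrophage libraries labelled RevDKO or RevScapTKO than in Control, whereas Arntl and Clock did not pass. In Control macrophages Npas2 measured 0.656, 0.857 and 0 RPKTM at ZT4, 0, 1.38 and 0 at ZT10, 0.204, 0 and 9.56 at ZT16, and 1.10, 0 and 3.39 at ZT22. In the libraries labelled RevDKO it measured 27.3, 21.9 and 40.3 at ZT4, 21.0, 29.9 and 15.4 at ZT10, 24.9, 23 and 33.4 at ZT16, and 14.3, 0 and 14.5 at ZT22. The groups did not overlap at ZT4, ZT10 and ZT16, and at ZT22 the library at 0, replicate 2, also had the lowest Clock level, 9.16. In the libraries labelled RevScapTKO it measured 20.6, 19.6 and 29.5 at ZT4, 5.96, 14.6 and 26.5 at ZT10, 15.7, 25.9 and 28.2 at ZT16, and 16.1, 4.84 and 34.0 at ZT22, above Control at all 4 times.

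Averaged over the day, macrophage Npas2 was 3.39 log2 units higher in RevDKO than in Control (2.54 to 4.24, limma adjusted p 1.1e-05), a comparison in which 0.402% of 13947 genes passed as higher, and 3.41 higher in RevScapTKO (2.56 to 4.26, 9.35e-07), where 2.38% did. The 2 comparisons share the Control libraries. In Control macrophages Npas2 exceeded the filter level of 5 RPKTM only in the ZT16 library at 9.56. It therefore entered the test through the libraries labelled RevDKO and RevScapTKO, where it was high. With no filter both mean differences passed as well. With 0.1 and 10 added before the logarithm the differences were 4.94 and 1.4 in RevDKO and 5.21 and 1.35 in RevScapTKO, and both passed each time. Without the 3 libraries rich in Alb they were 3.27 (adjusted p 0.000115) and 3.14 (3.1e-05). In the same 3 libraries, whose summed hepatocyte markers were 818724, 1617173 and 821561 RPKTM, Npas2 was 0.204, 1.10 and 34.0. Median summed hepatocyte markers were 90374 in Control, 93739 in RevDKO and 86039 in RevScapTKO macrophage libraries, whereas median summed macrophage markers were 16661, 8584 and 9245. Npas2 was also higher in hepatocytes of these genotypes, and the part of hepatocyte RNA in the macrophage values was not tested. The genes whose levels over the 12 groups were most like those of macrophage Npas2 were Pyroxd2 (r = 0.908), Loxl4 (0.908), Cyp2a5 (0.892), Chka (0.884) and Urml (0.883), of which Loxl4 and Chka were also among its most like genes in hepatocytes. By time, Npas2 passed at ZT10 in RevDKO (4.06, adjusted p 0.0444, with 0.0574% of genes higher) and at ZT4 in RevScapTKO (4.04, 0.0139, with 0.115% higher). The shares of genes higher at the other times, where Npas2 did not pass, were 0.00717% at ZT4, 0.00717% at ZT16 and 0% at ZT22 in RevDKO, and 0.0502% at ZT10, 0.0287% at ZT16 and 0.0287% at ZT22 in RevScapTKO. The call at ZT10 in RevDKO held in 2 of 8 other settings (adjusted p up to 0.233) and that at ZT4 in RevScapTKO in 6 of 8 (up to 0.162). With single libraries left out, the first call was lost in 19 of 36 fits and the second in 6 of 36.

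Arntl in Control macrophages measured 13.4, 31.4 and 9.94 RPKTM at ZT4, 9.19, 4.03 and 10.3 at ZT10, 8.21, 21.3 and 22.3 at ZT16, and 22.7, 33.2 and 58.4 at ZT22. In RevDKO it measured 13.2, 41.5 and 41.5 at ZT4, 32.6, 37.1 and 24.5 at ZT10, 38.0, 11.1 and 42.7 at ZT16, and 37.6, 21.0 and 39.2 at ZT22. In RevScapTKO it measured 32.6, 18.3 and 44.0 at ZT4, 17.7, 20.6 and 32.6 at ZT10, 13.1, 36.1 and 34.9 at ZT16, and 27.5, 19.5 and 45.4 at ZT22. Both groups stood above Control at ZT10 and overlapped with it at the other 3 times, with no count over all genes to set beside this. The mean differences from Control were 0.81 (0.25 to 1.38, limma adjusted p 0.197) and 0.68 (0.12 to 1.25, 0.18).

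Clock ranged in macrophages from 68.4 to 141 RPKTM in Control (median 97.1), from 9.16 to 133 in RevDKO (median 110.2) and from 30.9 to 129.8 in RevScapTKO (median 99.1), groups that overlapped throughout the range. Its mean differences from Control were -0.12 (-0.66 to 0.43, limma adjusted p 0.864) and -0.11 (adjusted p 0.865). Between RevScapTKO and RevDKO macrophages the means differed by -0.13 for Arntl, 0.01 for Clock and 0.02 for Npas2, none past the threshold, where 1.23% of genes passed as higher and 1.78% as lower. Of the other clock genes, 2 of 28 passed in macrophages in RevDKO minus Control, where 0.574% of genes did: Nfil3 (1.79 higher, adjusted p 0.00415) and Cry1 (1.35 higher, 0.0132). In RevScapTKO minus Control 3 of 28 passed against 3.76% of genes, Nfil3 and Ncor1 as higher and 1 as lower.

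**Figure D5:**
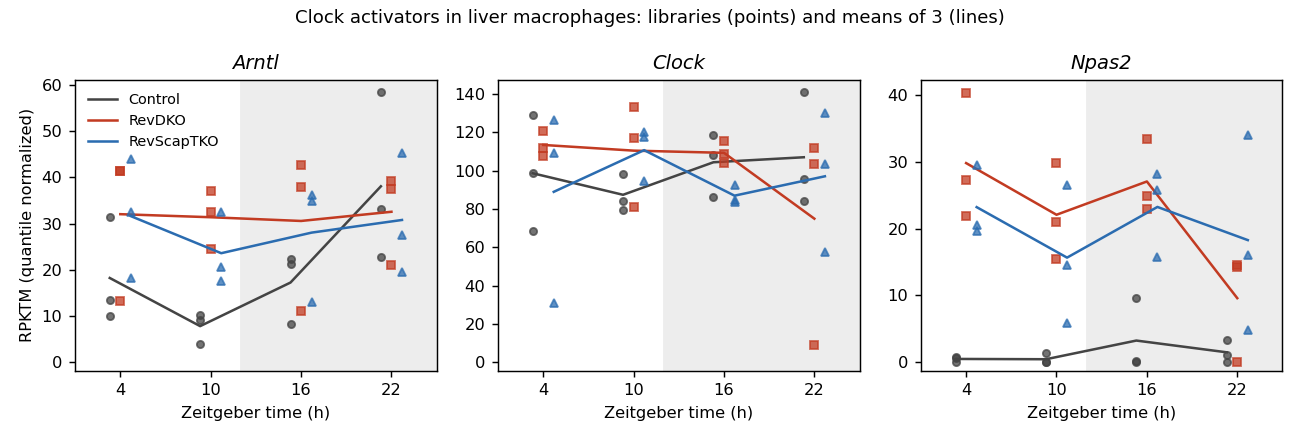
Levels of Arntl, Clock and Npas2 in liver macrophages (RPKTM, vertical axes) against zeitgeber time (h, horizontal axes, dark phase shaded); points are single libraries, offset sideways by genotype, and lines join the means of 3. Npas2 lies between 0 and 9.56 in Control and reaches 40.3 in the libraries labelled RevDKO, while the Clock points of the 3 genotypes overlap.

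Daily patterns in macrophages were weak for the activators. In Control the Arntl pattern had a size of 2.13 and a peak at ZT22.1 (limma adjusted p 0.267, unadjusted 0.00241), where 0.0502% of genes (7) passed; the rank test with the series entered once gave Arntl p 0.0156. A pattern passed for 2.53% of genes in RevDKO and for 0.0789% in RevScapTKO, and for 0 of the 3 activators in either. For a changed pattern limma called 0 genes in each comparison of macrophages, with 767 at an unadjusted p under 0.05 for RevDKO minus Control, 238 for RevScapTKO minus Control and 498 for RevScapTKO minus RevDKO.

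In ScapKO macrophages, again a table of their own, Arntl measured 144, 71.2 and 102 RPKTM at ZT4, 50.8, 62.9 and 81.0 at ZT10, 73.7, 56.6 and 69.7 at ZT16, and 114, 323 and 106 at ZT22. Npas2 measured 1.78, 0 and 3.01 at ZT4, 1.89, 0 and 0 at ZT10, 3.12, 0 and 0 at ZT16, and 9.84, 104 and 10.1 at ZT22. Both genes were highest in ZT22 replicate 2, which also had the highest summed hepatocyte markers (141886) and the lowest summed macrophage markers (21205) of that table. Without that library, too, no pattern passed. Clock ranged from 349 to 533 (median 434). No 24 h pattern passed for the 3 activators (Arntl 1.4, Clock 0.45 and Npas2 4.06 in size, limma adjusted p 0.452, 0.517 and 0.444), and 0 genes passed in that table, with 1412 at an unadjusted p under 0.05.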

How the data were processed

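RNA from isolated hepatocytes and liver macrophages was depleted of ribosomal RNA and sequenced as stranded libraries. The authors aligned reads to mm9 with STAR, quantified RefSeq transcripts with HOMER, and deposited quantile normalized RPKTM, 10 times the RPKM value; tool versions and the strand setting are not given in the sources used here. Quantile normalization was done within each of 4 tables, hides shifts common to most transcripts, and leaves the depth unknown, so that precision rests on the spread between replicates. Arntl, Clock, Npas2 and the gene lists were chosen with earlier results of these data known.

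Genes (highest-mean transcript, over 5 RPKTM in at least 3 libraries) were fitted on log2(RPKTM + 1) with limma 3.58.1 in R 4.3.3 (trend, 1 mean per genotype and time, all 3 genotypes of a table together, ScapKO alone). P-values were adjusted by Benjamini and Hochberg over all genes, with a threshold of 0.05. Daily patterns are the 24 h cosine and sine of the group means, and sizes are peak to trough. The fit was tested on simulated data. A rank test of 24 h patterns, exact over the library orders, was written in Python 3.11.15. Named genes were the 3 activators, the targeted genes, members of the clock lists that passed (up to 8 a comparison), and the 5 genes most like each activator; some of these are not reported here. Alternatives were pseudocounts of 0.1 and 10, no filter, all transcripts, other transcripts, fewer genotypes, a replicate block, marker covariates, all time terms, the rank test, and the libraries rich in Alb, the library of highest Xist or each single library left out. Protein sequences were not analysed here.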

Additional observations from a re-analysis of the deposited data

Results flagged for a closer look

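Differences between genotypes in the 24 h pattern, tested as interaction terms in limma, passed in hepatocytes for 2 of the 3 activators in each comparison with Control. Of all genes, 0.203% passed in RevDKO and 0.188% in RevScapTKO. These comparisons share their Control libraries. The adjusted p for Arntl was 1.27e-07 in RevDKO and 1.46e-07 in RevScapTKO, and for Npas2 0.0496 and 0.00983. Of the other clock genes, Cry1 had adjusted p 0.000242 and 0.000347, Nfil3 0.00325 and 0.041, and Nr1d1 0.00415 in RevScapTKO. The call for Npas2 in RevDKO was lost under each of 8 other settings and in 31 of 36 fits with a single library left out. Groups of 3 libraries were not tested for single outliers.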

How the results depend on the processing

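Of 92 results, 58 kept their direction and their side of the threshold under every alternative and with every library left out. The cause of the changes below was not tested. Same-numbered libraries deviated together more often than others, though not in every pair: correlations of deviations exceeded 0.1 in 13 of 36 same-numbered pairs of hepatocyte libraries (median 0.048) and 15 of 36 of macrophage libraries (median 0.088), against 7 of 72 differently numbered pairs in each (medians -0.029 and -0.046). The labels do not mark the numbers as pairs, and the main fit did not take them so, which leaves any shared deviation out of it. With a replicate block the changed pattern of Npas2 in RevDKO hepatocytes had limma adjusted p 0.0657. In that setting 2 listed clock genes in place of 1 had a daily pattern in RevScapTKO, with no share of all genes given beside this. Clock at ZT4 in RevDKO hepatocytes passed as well, as did Npas2 at ZT4 in RevDKO and ZT10 in RevScapTKO macrophages. No other call of an activator changed.

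The changed Npas2 pattern in RevDKO had adjusted p 0.176 and 0.275 with pseudocounts of 0.1 and 10, 0.201 with no filter, 0.0568 with all transcripts, 0.120 with only the genotypes compared, 0.0552 with marker covariates and 0.0614 with all time terms. In RevScapTKO it was 0.114, 0.0761 and 0.116 with a pseudocount of 0.1, no filter and only the genotypes compared. With only the genotypes compared, RevScapTKO minus RevDKO in hepatocytes passed for Arntl (-0.23) and Npas2 (-0.58), as Npas2 did with a pseudocount of 10 (-0.51), and the daily pattern of Clock in Control gave 0.0897. In ScapKO hepatocytes the patterns gave 0.113 for Clock and 0.150 for Npas2 with no filter, and 0.0756 for Npas2 with a pseudocount of 0.1. The rank test with the series entered once gave 0.0814 for Clock in Control and 0.0498 for Npas2 in RevDKO hepatocytes, and 0.0156 and 0.0346 for Arntl in Control and ScapKO macrophages. Entered 2 times, which shrinks p without adding data, it gave 0.0181 for Arntl and 0.000587 for Npas2 in RevDKO hepatocytes, 4.46e-05 for Arntl in Control macrophages, and 0.000198, 0.000805 and 0.00171 for Arntl, Clock and Npas2 in ScapKO macrophages.

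Mean differences that turned were small. Marker covariates moved RevScapTKO minus RevDKO to 0.14 for hepatocyte Clock and to 0.52 and -0.29 for macrophage Arntl and Clock, macrophage Clock in RevDKO minus Control to 0.03, and macrophage Arntl in RevScapTKO minus Control to 1.01, past the threshold. Macrophage Clock in RevScapTKO minus RevDKO became -0.026 with a pseudocount of 10 and -0.000736 and -0.000664 on its other transcripts, and macrophage Npas2 -0.072 with a pseudocount of 10 and -0.13 without the libraries rich in Alb. Clock list counts became 3 for daily patterns in RevDKO with marker covariates, 5 and 1 with them for the means of RevScapTKO minus Control and minus RevDKO, 2 with them for patterns in RevScapTKO, and 0 there with no filter, only the genotype itself or all time terms. The shares of all genes passing in these settings are not given here. These counts are therefore no result about clock genes in particular.

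With single libraries left out, adjusted p ranged from 0.0262 to 0.885 and from 0.0326 to 0.660 for the changed Clock pattern in RevDKO and RevScapTKO (passing only without Control ZT4 replicate 1), from 0.00297 to 0.173 and from 0.000311 to 0.0549 for that of Npas2 (the latter lost without Control ZT22 replicate 3 or RevScapTKO ZT22 replicate 2), and in ScapKO hepatocytes from 0.0089 to 0.0726 for Clock and 0.00441 to 0.0814 for Npas2. Hepatocyte differences at ZT22 in RevScapTKO ran from -0.064 to 0.18 for Clock and -0.049 to 0.68 for Npas2, and the hepatocyte mean of Clock in RevScapTKO minus RevDKO from -0.055 to 0.0060. Macrophage Clock means ran from -0.27 to 0.17 (RevDKO minus Control), -0.20 to 0.051 (RevScapTKO minus Control) and -0.28 to 0.17 (RevScapTKO minus RevDKO), and Npas2 in the last from -0.30 to 0.20. Clock list counts ran from 0 to 2 for patterns in RevScapTKO and 3 to 8 for RevScapTKO minus RevDKO, again without the shares of all genes in these fits.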
